A study of Mus musculus with 6 samples.

Results

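Chemokines and their receptors were followed in the tail artery (caudal artery) of Notch3-/- and Notch3+/+ mice aged 4 weeks. A gene was a member when a probe set of the array carried a single platform symbol made of Ccl, Cxcl, Cx3cl, Xcl, Ccr, Cxcr, Cx3cr, Xcr or Ackr and a number with at most one letter. This gave 53 genes, 33 ligands and 20 receptors, on 85 probe sets, of 18194 genes in all, and each gene was read on the probe set with its highest mean over the 6 arrays. Each of the 3 Notch3-/- RNAs came from arteries of 4 pooled mice, and the 3 Notch3+/+ RNAs came from 4, 3 and 3 mice. Notch3-/- mice lack the gene for a Notch receptor of arterial smooth muscle. How the allele was made is not described in the labels used here.

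Chemokines are small secreted proteins that steer migrating cells along gradients held on proteoglycans. They are named CC, CXC, CX3C or XC by the spacing of their first cysteines, and they act on G protein-coupled receptors carried mainly by leukocytes. Atypical receptors (Ackr) bind chemokines without G protein signalling and mostly take them up and degrade them. In an artery wall, Cxcl12 is made by stromal and vascular cells, whereas many CC ligands are products of resident macrophages and fibroblasts.

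Notch3 itself read 6.51, 6.44 and 5.87 in Notch3-/- pools, against 9.94, 9.95 and 10.09 in Notch3+/+ pools on the brighter of its 2 probe sets (log2 units, adjusted p = 0.000529, limma), so the labels match this transcript. All 7 smooth muscle markers were above the level filter in this arterial tissue. They did not share a direction: Des rose by 2.01 (adjusted p = 0.00327, limma), Cnn1 differed by 0.51 and Smtn by -0.58, neither passing. Acta2 read 13.25 ± 0.00 in Notch3-/- and 13.20 ± 0.04 in Notch3+/+ arteries (SD, n = 3 each), near the top of the scale. Notch3-/- replicate 2 stood apart on the first principal component, at 39.52 against -17.09 to 5.85 for the other 5 arrays. Values are log2 expression after RMA. A difference is the Notch3-/- minus the Notch3+/+ mean, and brightness is not compared between probe sets as abundance.

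No member passed the threshold of 0.05 on the adjusted p from limma, 0 of 30 tested members, against 0.322% of the 12732 genes and 0.252% of the 27027 probe sets tested. With array weights 3 members passed, Ackr3, Ccl24 and Ccl7, in a fit that called 465 genes, 3.65% of those tested. The remaining 23 members had a mean below the 40th percentile of probe sets (3.825) and were not tested. At an unadjusted p under 0.05, 9 of the 30 tested members (30.0%) were higher in Notch3-/- arteries and 0 were lower. Among all tested genes, 7.1% were higher and 4.81% lower at that p. The 9 were the ligands Ccl7, Ccl8, Ccl9, Ccl11, Ccl12 and Ccl24 and the receptors Ccr1, Ackr2 and Ackr3. The count of 9 dropped to 5 when Notch3-/- replicate 1 was left out (13.7% of all genes in either direction, against 11.9% with all arrays). It dropped to 4 when Notch3+/+ replicate 3 was left out (6.94% of all genes) and to 5 when Notch3+/+ replicate 2 was (7.46%).

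In 8 tested members the values of the 2 genotypes were fully apart. In 7 of them (23.3%, against 9.46% of all tested genes) every Notch3-/- pool lay above every Notch3+/+ pool: Ccl2, Ccl8, Ccl9, Ccl24, Cxcl12, Ackr2 and Ackr3. In 1 of them (3.33%, against 7.88%), Cxcl16, every Notch3-/- pool lay below. The gap between the nearest pools of the 2 genotypes was 0.02 to 0.12 in these 8 genes. Below the filter, and so not tested, every Notch3-/- pool lay below every Notch3+/+ pool on the brightest probe sets of Cxcl11, Xcl1 and Cxcr2. Their gaps were 0.19, 0.10 and 0.06, and no untested member was apart in the other direction on its brightest probe set. Dimmer probe sets of Cxcl13 and Ccr1, also below the filter, had every Notch3-/- pool higher, by gaps of 0.08 and 0.12. How often genes below the filter are apart was not counted, so no direction is read from these probe sets.

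**Figure D1:**
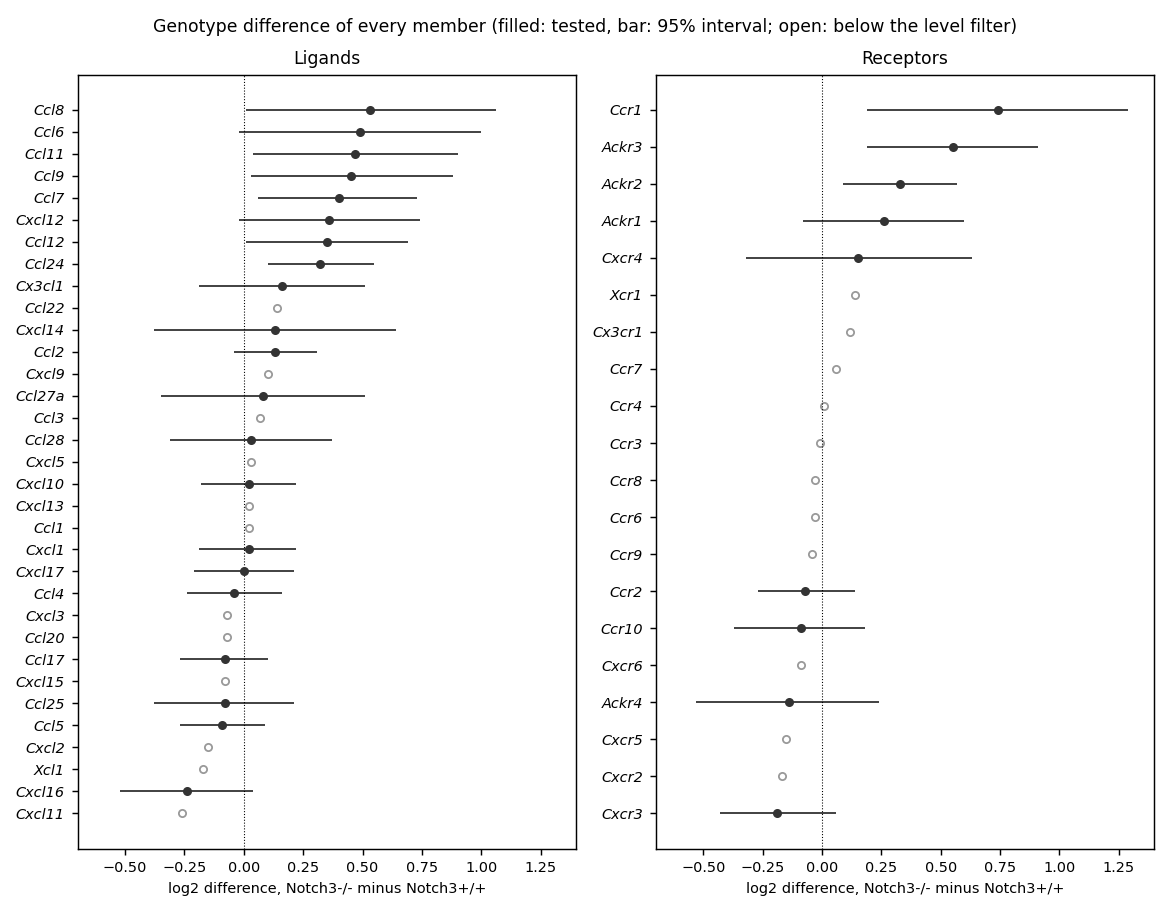
Log2 difference, Notch3-/- minus Notch3+/+, of the 33 ligands (left) and 20 receptors (right). Filled points are tested members with the 95% interval from limma and open points lie below the level filter; the tested values ran from -0.24 for Cxcl16 to 0.74 for Ccr1.

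Upstream sequences are shown for the members with an unadjusted p under 0.05 that are CC ligands of chromosome 11 and have a window in the RefSeq promoter table (GRCm38.p6), and for Ackr3, which had the smallest adjusted p of all members. Each run covers the 250 bases before the annotated start, 5′ to 3′ on the gene's strand. Capitals mark matches to the motifs searched on either strand: the RBPJ core TGGGAA, through which Notch signalling acts on DNA, the NF-kappaB consensus, the AP-1 motif TGANTCA, the STAT motif TTCNNNGAA and, on the gene's strand only, the TATA motif TATAAA.
Ccl8, chr11:82114935-82115184, plus strand: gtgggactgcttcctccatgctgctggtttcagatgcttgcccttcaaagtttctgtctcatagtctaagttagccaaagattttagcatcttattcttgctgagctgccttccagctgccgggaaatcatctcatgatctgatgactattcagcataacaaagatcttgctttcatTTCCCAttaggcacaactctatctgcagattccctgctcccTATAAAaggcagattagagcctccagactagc
Ccl12, chr11:82101595-82101844, plus strand: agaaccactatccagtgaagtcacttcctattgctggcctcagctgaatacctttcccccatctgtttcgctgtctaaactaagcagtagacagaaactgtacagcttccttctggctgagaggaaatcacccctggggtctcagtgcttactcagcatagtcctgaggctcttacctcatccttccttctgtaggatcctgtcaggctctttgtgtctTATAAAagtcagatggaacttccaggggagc
Ccl9, chr11:83578637-83578886, minus strand: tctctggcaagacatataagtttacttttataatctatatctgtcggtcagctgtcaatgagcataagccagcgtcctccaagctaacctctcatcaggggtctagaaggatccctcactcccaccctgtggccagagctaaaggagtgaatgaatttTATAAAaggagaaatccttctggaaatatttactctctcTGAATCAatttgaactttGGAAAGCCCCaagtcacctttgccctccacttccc
Ackr3, chr1:90203730-90203979, plus strand: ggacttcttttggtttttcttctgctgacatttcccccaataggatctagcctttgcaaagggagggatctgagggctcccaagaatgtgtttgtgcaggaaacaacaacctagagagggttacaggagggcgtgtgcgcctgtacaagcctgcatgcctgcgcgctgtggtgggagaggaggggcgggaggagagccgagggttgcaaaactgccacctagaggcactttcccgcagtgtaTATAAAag
Ccl8 and Ccl12, 2 neighbouring genes, hold the TATA motif at -32 and -31, and the 2 windows were identical at 55.6% of their aligned positions, the highest of the 15 pairs among 6 CC ligand windows of chromosome 11 (43.5% to 55.6%). These alignments allowed gaps, and windows of unrelated genes were not aligned for comparison. The RBPJ core lies at -73 in Ccl8 and matches nowhere in the windows of Ccl12, Ccl9 and Ackr3. Ccl9 holds the AP-1 motif at -53 and the NF-kappaB consensus at -35. Windows were found for 40 of the 53 member genes, 44 windows in all. A member gene counts when any of its windows matches, whereas the shares over all windows are per window. The counts and shares are thus not in the same unit. The RBPJ core occurs in 12 of these 40 genes and in 21.6% of all 32851 windows, the NF-kappaB consensus in 11 genes and 7.25%, the TATA motif in 12 and 7.59%, the AP-1 motif in 5 and 6.75%, and the STAT motif in 3 and 7.02%. In Ccl1, Ccr3 and Ccr6 a match to the RBPJ core overlaps one to the NF-kappaB consensus. A match describes the letters and is not a bound site.

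Of the 9 members at an unadjusted p under 0.05, 6 were CC ligands, and 5 of these lie in the CC ligand blocks of chromosome 11. Of 18 CC ligands 14 were tested, with a median difference of 0.23. At an unadjusted p under 0.05, 6 of the 14 (42.9%) were higher, against 7.1% of all tested genes. Of 13 CXC ligands 6 were tested, with a median of 0.02 and 0 at that p. Since 11.9% of all tested genes had such a p in either direction, 0 of 6 does not set the CXC ligands apart. Over all 21 tested ligands the median was 0.13, and 15 were above 0 and 5 below, against a median of 0.00 and 48.6% above 0 over all tested genes. The median of all tested ligands was 0.02 without Notch3-/- replicate 1 and 0.20 without Notch3-/- replicate 2.

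The chromosome 11 CC ligands form 2 blocks. The first, in the order Ccl2, Ccl7, Ccl11, Ccl12, Ccl8 and Ccl1, holds the monocyte chemoattractants and eotaxin, and all 5 of its tested genes were above 0, by 0.13 to 0.53. The second, in the order Ccl5, Ccl9, Ccl6, Ccl3 and Ccl4, had 2 tested genes above 0 and 2 below, from -0.09 to 0.49. Together the 9 tested genes had a median of 0.40, which was 0.27 without Notch3+/+ replicate 3 and 0.26 without Notch3-/- replicate 1. The 12 tested ligands outside these blocks had a median of 0.03.

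**Figure D2:**
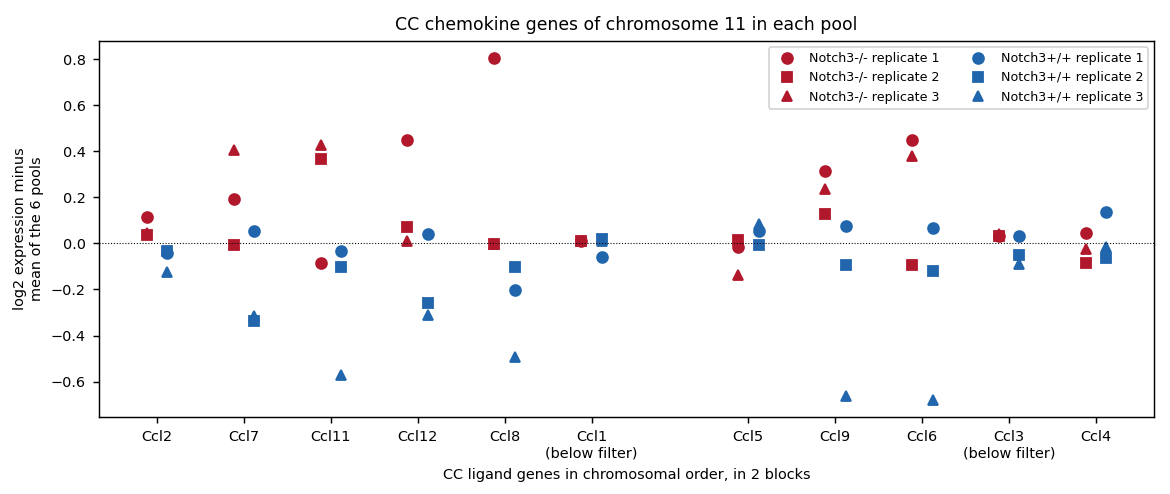
Log2 expression of the 11 CC ligands of chromosome 11, in chromosomal order, minus the mean of the 6 pools for each gene. Symbols stand for pools; Notch3-/- replicate 1 is the high point of Ccl8 and Ccl12, and Notch3+/+ replicate 3 is the low point of Ccl6, Ccl8, Ccl9 and Ccl11.

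Ccl2, Ccl7 and Ccl12 are ligands of Ccr2, the receptor by which monocytes leave the blood. Ccl7 read 4.37, 4.17 and 4.58 in Notch3-/- pools, against 4.23, 3.84 and 3.86 in Notch3+/+ pools. Notch3+/+ replicate 1 lay inside the Notch3-/- range, and the difference was 0.40 (SE 0.14, 1.32-fold, adjusted p = 0.376). Ccl12 read 4.80, 4.42 and 4.36 in Notch3-/- pools and 4.39, 4.09 and 4.04 in Notch3+/+ pools. Its groups also met at Notch3+/+ replicate 1, with a difference of 0.35 (SE 0.15) that was 0.22 without Notch3-/- replicate 1. Ccl2, the best known monocyte attractant, read 4.12 ± 0.04 in Notch3-/- and 3.99 ± 0.05 in Notch3+/+ arteries (SD, n = 3 each), with an interval of the difference from -0.04 to 0.31.

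Ccl8, which in mice acts on Ccr8, read 7.20, 6.39 and 6.39 in Notch3-/- pools, against 6.19, 6.29 and 5.90 in Notch3+/+ pools. The groups did not overlap, but Notch3-/- replicate 1 stood far above the other 5 pools. The difference was 0.53 (SE 0.23, adjusted p = 0.437), and it was 0.26 without Notch3-/- replicate 1. The probe set of its receptor Ccr8 lay below the level filter, at 2.39, 2.39 and 2.39 in Notch3-/- pools and 2.36, 2.41 and 2.49 in Notch3+/+ pools.

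The eotaxins Ccl11 and Ccl24 attract eosinophils through Ccr3. Ccl11, which is also made by fibroblasts, read 7.34, 7.79 and 7.85 in Notch3-/- pools and 7.39, 7.32 and 6.85 in Notch3+/+ pools. Notch3-/- replicates 2 and 3 were high, and replicate 1 lay within the Notch3+/+ range. The difference was 0.47 (SE 0.18, 1.39-fold, adjusted p = 0.404), and 0.31 without Notch3+/+ replicate 3. Ccl24, a product of macrophages, read 5.82, 5.57 and 5.77 in Notch3-/- pools and 5.45, 5.30 and 5.44 in Notch3+/+ pools. Its groups were apart, with a difference of 0.32 (SE 0.10, 1.25-fold) and the smallest adjusted p among the ligands, 0.293. Ccr3 lay below the filter, at 2.18, 2.23 and 2.19 in Notch3-/- pools and 2.25, 2.10 and 2.29 in Notch3+/+ pools, and 0 of 5 eosinophil and basophil markers reached it.

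Ccl6 and Ccl9 are rodent ligands of Ccr1, a receptor of monocytes and macrophages. Ccl6 read 7.47, 6.93 and 7.40 in Notch3-/- pools and 7.09, 6.90 and 6.34 in Notch3+/+ pools. Ccl9 read 7.29, 7.10 and 7.21 in Notch3-/- pools and 7.05, 6.88 and 6.31 in Notch3+/+ pools. In both, Notch3+/+ replicate 3 was well below the other 5 pools, and in Ccl9 the groups did not overlap. The differences were 0.49 (SE 0.22, adjusted p = 0.459) for Ccl6 and 0.45 (SE 0.18, adjusted p = 0.415) for Ccl9. Without Notch3+/+ replicate 3 they were 0.27 and 0.23. Each has a second probe set, on which Ccl6 was higher by 0.60 (SE 0.21, on a probe set whose name marks it as open to other transcripts) and Ccl9 by 0.41 (SE 0.23).

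Their receptor Ccr1 read 5.20, 5.36 and 4.83 in Notch3-/- pools, against 4.88, 4.31 and 3.98 in Notch3+/+ pools. It had the largest difference of any tested member, 0.74 (SE 0.23, 1.67-fold, adjusted p = 0.322), although Notch3+/+ replicate 1 overlapped the Notch3-/- pools. A second probe set of Ccr1, below the filter with a mean of 2.14, differed by 0.36, and its groups were apart by 0.12. Ccl5 is a further ligand of Ccr1 and attracts T cells. It read 4.08, 4.11 and 3.96 in Notch3-/- pools and 4.15, 4.09 and 4.18 in Notch3+/+ pools, which overlapped, with a difference of -0.09. Ccl3, another Ccr1 ligand, lay below the filter, at 2.74, 2.74 and 2.75 in Notch3-/- pools and 2.74, 2.66 and 2.62 in Notch3+/+ pools, and its gene overlaps that of Ccl4 in RefSeq. Ccl4 read 5.16 ± 0.07 in Notch3-/- and 5.20 ± 0.10 in Notch3+/+ arteries (SD, n = 3 each), with an interval of the difference from -0.24 to 0.16.

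**Figure D3:**
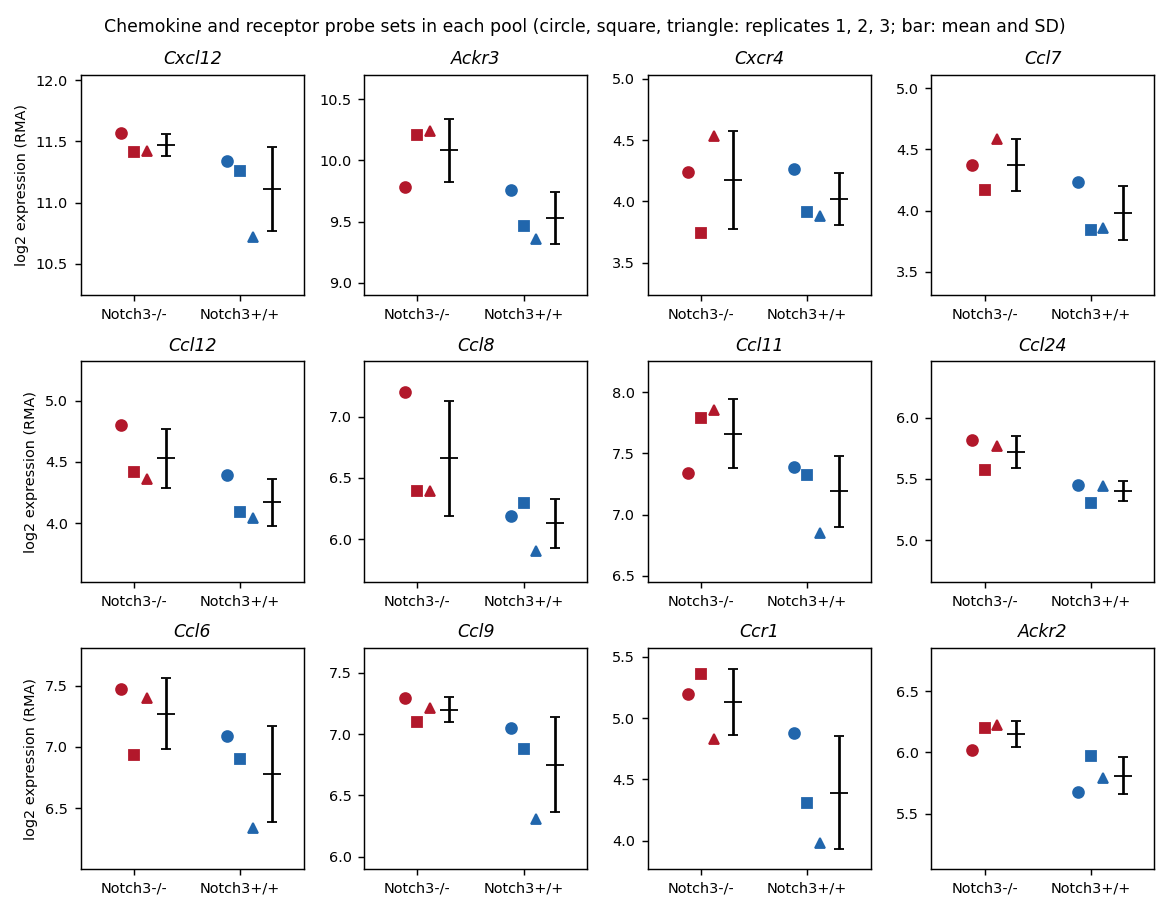
Log2 expression of 12 members in each pool, Notch3-/- left of Notch3+/+ in each panel, with circles, squares and triangles for replicates 1, 2 and 3 and the mean with its SD beside them. All panels span the same height of the log2 scale; Ackr3, Ccl8, Ccl9, Ccl24, Cxcl12 and Ackr2 show Notch3-/- pools all above Notch3+/+ pools, by gaps of 0.02 to 0.12.

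Cxcl12 holds progenitor and immune cells in place through Cxcr4 and is also bound by Ackr3, which removes it. On its brightest probe set Cxcl12 read 11.57, 11.41 and 11.42 in Notch3-/- pools and 11.34, 11.26 and 10.72 in Notch3+/+ pools. Every Notch3-/- pool was above every Notch3+/+ pool, and Notch3+/+ replicate 3 was lowest. The difference was 0.36 (SE 0.16, adjusted p = 0.467), and it was 0.17 without Notch3+/+ replicate 3 and 0.05 for the mean of its probe sets. The other 2 probe sets of Cxcl12 read differences of -0.04 (SE 0.16) and -0.17 (SE 0.19), so the direction was not shared within the gene. Such probe sets may report different transcripts of the gene, and the files do not say which.

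Ackr3 read 9.78, 10.21 and 10.24 in Notch3-/- pools, against 9.76, 9.46 and 9.36 in Notch3+/+ pools. The groups were apart by 0.02, the distance between both replicates 1. The difference was 0.55 (SE 0.16, 1.46-fold, adjusted p = 0.269, the smallest of all members). It ran from 0.47 to 0.70 over the alternatives tried. With array weights it was 0.68 and had an adjusted p of 0.0262. Ackr3 is read only on a probe set of the s kind, which Affymetrix names as open to other transcripts. Cxcr4, the signalling receptor, read 4.24, 3.74 and 4.53 in Notch3-/- pools and 4.26, 3.91 and 3.88 in Notch3+/+ pools. Those groups overlapped, with a difference of 0.15 and an interval from -0.32 to 0.63, and the sign turned without Notch3-/- replicate 3 (-0.03). Cxcl11, which also binds Ackr3, lay below the filter, at 3.34, 3.32 and 3.31 in Notch3-/- pools and 3.67, 3.56 and 3.53 in Notch3+/+ pools.

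Ackr2, a scavenger of inflammatory CC ligands, read 6.02, 6.20 and 6.22 in Notch3-/- pools and 5.68, 5.97 and 5.79 in Notch3+/+ pools. Its groups did not overlap, and the difference was 0.33 (SE 0.10, 1.26-fold, adjusted p = 0.314), while its dimmer probe sets read 0.06 and 0.12. Ackr1, the Duffy antigen of venular endothelium and red cells, read 7.85, 7.41 and 7.78 in Notch3-/- pools and 7.63, 7.35 and 7.28 in Notch3+/+ pools, which overlapped (difference 0.26, SE 0.14, and 0.40 without Notch3-/- replicate 2).

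Ackr4, which clears Ccl25 and the lymph node homing chemokines, gave conflicting probe sets. The brightest read 4.76, 4.50 and 4.65 in Notch3-/- pools and 4.40, 5.03 and 4.91 in Notch3+/+ pools, a difference of -0.14. The other 2 read differences of 0.58 (SE 0.28, on a probe set of the x kind, open to other transcripts) and 0.80 (SE 0.45). In both, Notch3-/- replicate 2 stood far above, at 5.41 and 5.79 against at most 4.54 and 4.04 in the other 5 pools. Of the 4 atypical receptors, 3 were above 0 with a median of 0.30, and of the 5 tested signalling receptors 2 were above 0 with a median of -0.07. That -0.07 is the value of Ccr2 on its brightest probe set, whereas the mean of its 4 probe sets gave 0.26. The contrast between the 2 kinds of receptor thus depends on the probe set read. The median over all 9 tested receptors was 0.15. Leaving out Notch3-/- replicate 2 gave 0.31 and leaving out Notch3-/- replicate 3 gave -0.03. Among Notch3+/+ pools, omission of replicate 1 gave 0.27, of replicate 2 gave 0.10 and of replicate 3 gave 0.08.

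Ccr2 also depended on the probe set. The brightest of its 4 read 5.77, 5.63 and 5.70 in Notch3-/- pools and 5.70, 5.70 and 5.90 in Notch3+/+ pools, a difference of -0.07 (SE 0.09). The next read 6.23, 5.90 and 5.59 in Notch3-/- pools and 5.52, 5.54 and 5.22 in Notch3+/+ pools, where the groups did not overlap. That difference was 0.48 (SE 0.17, adjusted p = 0.368), and the other 2 read 0.39 and 0.22. The mean of the 4 gave 0.26. Of the 11 members with several tested probe sets, the sign differed in 4: Ackr4, Ccl25, Ccr2 and Cxcl12.

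**Figure D4:**
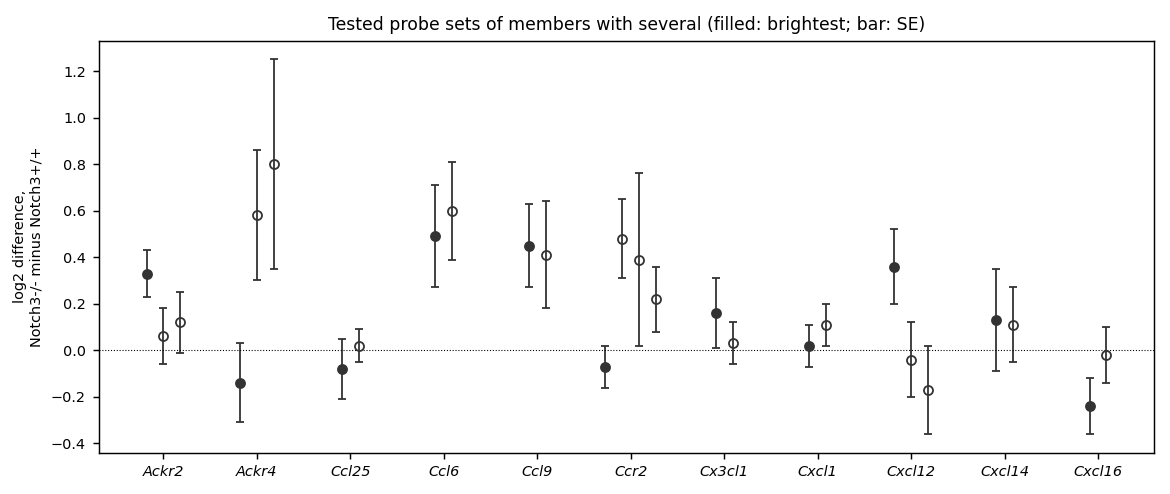
Log2 difference, Notch3-/- minus Notch3+/+, of each tested probe set of the 11 members that have several, with its SE from limma. The filled point is the brightest probe set, which represents the gene; Ccl6 and Ccl9 have both probe sets above 0, whereas Ackr4, Ccl25, Ccr2 and Cxcl12 have probe sets on both sides of 0.

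Cxcl14, a ligand of epithelium and fibroblasts, read 9.73, 9.17 and 9.53 in Notch3-/- pools and 9.65, 9.50 and 8.89 in Notch3+/+ pools, which overlapped (difference 0.13, interval -0.38 to 0.64). Cxcl16, an anchored ligand and scavenger receptor of macrophages and endothelium, read 6.80, 6.41 and 6.80 in Notch3-/- pools and 6.98, 6.89 and 6.86 in Notch3+/+ pools. It was the lowest tested value, at -0.24 (SE 0.12, adjusted p = 0.507), and it was -0.11 without Notch3-/- replicate 2, while its second probe set read -0.02. Cx3cl1, or fractalkine, an adhesive ligand of endothelium, read 5.79, 5.27 and 5.50 in Notch3-/- pools and 5.57, 5.27 and 5.25 in Notch3+/+ pools, with a difference of 0.16 (SE 0.15) that was 0.02 without Notch3-/- replicate 1. Their receptors Cxcr6 (2.85) and Cx3cr1 (3.29) had means below the filter.

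Among ligands of neutrophils and of interferon responses, Cxcl1 and Cxcl10 were tested. Cxcl1, which attracts neutrophils through Cxcr2, read 6.90, 6.79 and 6.69 in Notch3-/- pools and 6.72, 6.75 and 6.86 in Notch3+/+ pools, with an interval of the difference from -0.19 to 0.22. Its brightest probe sets are of the x and s kinds, open to other transcripts, and the third lay below the filter at 3.61. Cxcl2, Cxcl3, Cxcl5 and Cxcr2 lay below the filter, at 2.31, 1.91, 2.33 and 3.03. Cxcl10, induced by interferon, read 4.18 ± 0.04 in Notch3-/- and 4.16 ± 0.11 in Notch3+/+ arteries (SD, n = 3 each), and its partners Cxcl9 and Cxcl11 were not tested. In Cxcl11, whose pool values stand beside Ackr3, every Notch3-/- pool was below every Notch3+/+ pool on the brighter probe set, with a difference of -0.26 below the filter. Its dimmer probe set, also below the filter, read 0.09, and the groups overlapped. Cxcr3, the receptor of Cxcl9, Cxcl10 and Cxcl11, read 4.28 ± 0.10 in Notch3-/- and 4.46 ± 0.16 in Notch3+/+ arteries (SD, n = 3 each). That was a difference of -0.19 with an interval from -0.43 to 0.06.

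The other tested ligands were Ccl17 (-0.08), a T cell attractant, the mucosal and skin homing ligands Ccl25 (-0.08), Ccl27a (0.08, on a probe set of the x kind) and Ccl28 (0.03), and Cxcl17 (0.00). Among receptors, Ccr10 read -0.09. Ccl19 and Ccl21 are not members, since their probe sets carry several gene symbols. Those probe sets passed the filter and differed by -0.01 for Ccl19, with overlapping groups, and by 0.55 for Ccl21 (SE 0.20, adjusted p = 0.372, limma). For Ccl21 every Notch3-/- pool was higher, by a gap of 0.03. Probe sets shared by Ccl27a and Ccl27b differed by -0.12 and 0.04. Untested ligands were Ccl1, Ccl3, Ccl20, Ccl22, Cxcl2, Cxcl3, Cxcl5, Cxcl9, Cxcl11, Cxcl13, Cxcl15 and Xcl1, and untested receptors were Ccr3, Ccr4, Ccr6, Ccr7, Ccr8, Ccr9, Cxcr2, Cxcr5, Cxcr6, Cx3cr1 and Xcr1. Thus 56.6% of members reached the filter, against 70.0% of all genes. The member just above it was Ccl28, with a mean of 3.87, and the one just below was Ccl22, at 3.78. A probe set below the filter is not shown to lack its transcript, since the files hold no detection call.

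Markers of cells that make or answer chemokines were set beside these genes, and the macrophage, mast cell and lymphatic lists had the same direction in all their tested genes, though 0 of these genes passed over all genes tested. In bulk tissue, more cells of a type and more RNA per cell cannot be told apart. All 11 macrophage and monocyte markers above the filter, of 12 matched, had a positive difference, 0.20 to 0.76. Of these, 6 had an unadjusted p under 0.05 (54.5%, against 11.9% of all tested genes), and the smallest adjusted p was 0.247. Sums of linear signal, in this and the following lists, cover all matched markers, also those below the filter. For the 12 macrophage and monocyte markers they spanned 2180 to 2880 in Notch3-/- pools, against 1390 to 2230 in Notch3+/+ pools. The centred medians of the 11 tested markers were 0.44, 0.05 and 0.26 in Notch3-/- pools and 0.08, -0.09 and -0.66 in Notch3+/+ pools. The 9 chromosome 11 CC ligands had centred medians of 0.20, 0.01 and 0.05 in Notch3-/- and 0.05, -0.10 and -0.31 in Notch3+/+ pools. In both lists Notch3-/- replicate 1 was highest and Notch3+/+ replicate 3 lowest.

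All 8 mast cell markers had a positive difference, 0.29 to 0.80, and their summed signal spanned 1520 to 2560 in Notch3-/- pools, against 878 to 1860 in Notch3+/+ pools. All 5 tested lymphatic endothelial markers, of 6, were above 0, with sums of 563 to 636 in Notch3-/- pools, against 370 to 453 in Notch3+/+ pools, while Prox1, which defines that cell, lay below the filter at 2.08 ± 0.04 in Notch3-/- and 2.14 ± 0.08 in Notch3+/+ arteries (SD, n = 3 each). Lyve1 belongs to both the macrophage and the lymphatic list. Of 7 dendritic cell markers 6 were tested and 5 were above 0, with sums of 1080 to 1380 in Notch3-/- pools, against 698 to 1130 in Notch3+/+ pools. Endothelial markers went the other way, with 9 of 11 below 0 and sums of 5620 to 6290 in Notch3-/- pools, against 6580 to 7460 in Notch3+/+ pools.

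Of 8 T and NK cell markers 4 were tested, with Cd3d and Cd3g below the filter. Their sums, 395 to 411 in Notch3-/- pools, against 327 to 345 in Notch3+/+ pools, were set mostly by Thy1, which fibroblasts and nerves also carry, at 8.06 ± 0.03 in Notch3-/- and 7.60 ± 0.07 in Notch3+/+ arteries (SD, n = 3 each). Of 6 neutrophil markers 2 were tested, with sums of 71.5 to 89.8 in Notch3-/- pools, against 71.2 to 87.8 in Notch3+/+ pools. Of 5 B and plasma cell markers 1 was tested, with sums of 48.6 to 56.2 in Notch3-/- pools, against 53.9 to 58.2 in Notch3+/+ pools. Most markers in the neutrophil and B cell sums lay below the filter. Of 10 adventitial fibroblast markers 8 were above 0, and 1, Dpt, rose by 0.58 (adjusted p = 0.0499, limma). In 4 of the 10 every Notch3-/- pool lay above every Notch3+/+ pool, against 9.46% of all tested genes. In 0 of the 10 every Notch3-/- pool lay below, against 7.88%. The fibroblast sums were 27100 to 29800 in Notch3-/- pools, against 26100 to 27900 in Notch3+/+ pools. The part of any of these cell types in the chemokine differences was not tested.

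**Figure D5:**
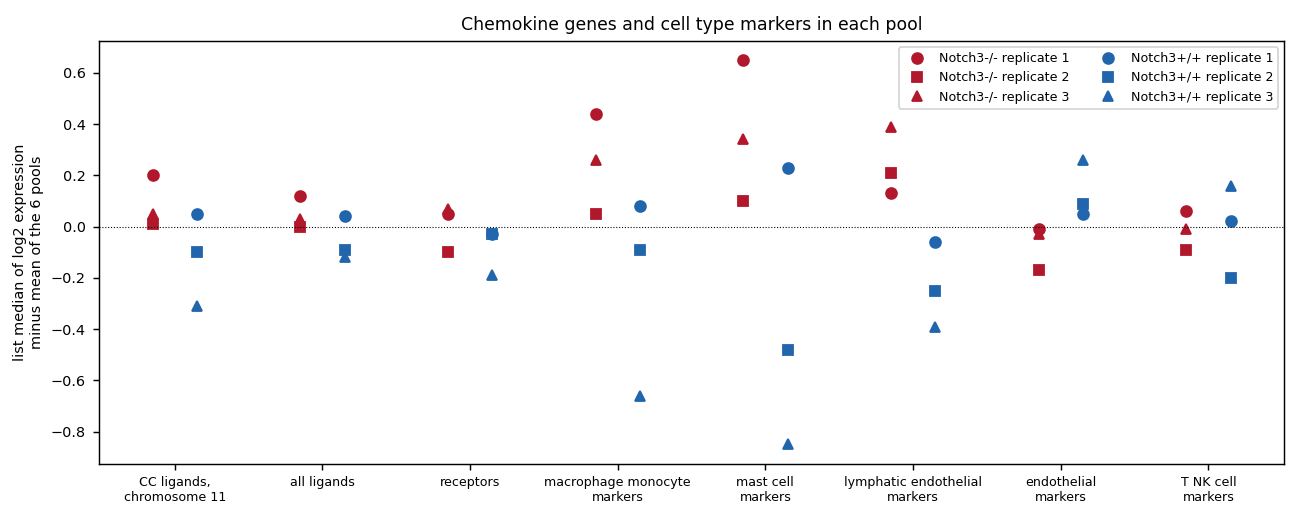
Median over each list of log2 expression minus the mean of the 6 pools, for the tested chemokine genes and for 5 lists of cell type markers, with one symbol per pool. Notch3+/+ replicate 3 is lowest for the CC ligands of chromosome 11 (-0.31), the macrophage markers (-0.66) and the mast cell markers (-0.85), and it is highest for the endothelial markers (0.26).

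Among genes around the chemokine system, 0 in the lists below passed in limma over all genes tested, and 11.9% of all tested genes had an unadjusted p under 0.05. Of 11 tested relatives outside the naming rule 7 were above 0, with a median of 0.11 and 3 at an unadjusted p under 0.05 (27.3%). Pf4, the platelet and macrophage chemokine also called Cxcl4, read 8.59, 8.40 and 8.55 in Notch3-/- pools and 8.27, 8.29 and 7.59 in Notch3+/+ pools, a difference of 0.46 (SE 0.19) that was 0.23 without Notch3+/+ replicate 3. Ppbp, in the same list, differed by -0.46 (SE 0.29), and its groups overlapped. Ccrl2, which binds chemerin without signalling, differed by -0.22, and the CMTM family genes Cmtm7 and Cmtm3 by 0.41 and 0.26.

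Of 29 tested genes that act downstream of chemokine receptors 17 were above 0, with a median of 0.07 and 2 at an unadjusted p under 0.05. Rgs1, which ends G protein signalling at chemokine receptors, read 5.41, 5.35 and 5.21 in Notch3-/- pools and 5.72, 5.81 and 5.80 in Notch3+/+ pools. Its groups lay well apart, with a difference of -0.45 (SE 0.08, adjusted p = 0.121). Fermt3, the integrin activator kindlin-3 of blood cells, differed by 0.45 (0.30 without Notch3+/+ replicate 3), Was, an actin regulator of blood cells, by 0.26, and the arrestin gene Arrb2 by 0.18.

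Of 19 tested cytokine and transcription factor genes that induce chemokines 9 were above 0 and 9 below, with a median of 0.00 and 0 at an unadjusted p under 0.05. Il1r1, the interleukin 1 receptor, differed by -0.29 and Stat3 by -0.28 (-0.16 and -0.12 without Notch3-/- replicate 2), and the NF-kappaB feedback genes Tnfaip3 and Nfkbiz by 0.21 and 0.20. Of 19 tested genes that cut or present chemokines 12 were above 0, with a median of 0.03 and 3 at that p: the heparan sulphate proteoglycan gene Sdc2 (-0.23), Tnfaip6 (0.50), whose product TSG-6 binds chemokines, and Adam10 (0.17), which sheds Cxcl16 and Cx3cl1. Tnfaip6 was 0.26 without Notch3+/+ replicate 3. Hspg2, or perlecan, differed by -0.43, and by -0.16 without Notch3-/- replicate 2. Of 15 tested leukocyte adhesion genes 9 were above 0, with a median of 0.04 and 2 at that p. Vcam1, which arrests leukocytes, read 7.88, 7.65 and 7.66 in Notch3-/- pools and 7.27, 7.27 and 6.90 in Notch3+/+ pools, apart by more than the spread within either genotype, with a difference of 0.58 (SE 0.13, adjusted p = 0.177). Pecam1 differed by -0.47 (-0.24 without Notch3-/- replicate 2), Jam3 by -0.21 and Icam1 by 0.23 (0.15 without Notch3+/+ replicate 3).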

How the data were processed

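RNA of 3 Notch3-/- and 3 Notch3+/+ pools was hybridised to Affymetrix mouse arrays, 1 per pool. The deposited values are log2 expression values made by the authors with RMA, per the submitters' processing notes; the sources used here name neither a version of it nor a chip definition, and no scanner files were used here. The file held 45101 probe sets, less 64 controls. Gene names came from the platform annotation, and chromosomes from RefSeq (GRCm38.p6).

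Probe sets with a mean below the 40th percentile (3.825) were left out, and the other 27027 were fitted with limma 3.58.1 (lmFit, eBayes, genotype the only term) in R 4.3.3, with two-sided p-values adjusted by Benjamini-Hochberg over all of them. Intervals are 95% intervals of this fit. Fold is the antilog of a log2 difference. RMA compresses differences of dim probe sets, so folds there may be understated, and 3 arrays per genotype limit the precision. The labels call the pools biological replicates and name no batch.

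Lists are described by counts and medians. Pool values are given for the 10 ligands and 6 receptors with the highest mean, members with an unadjusted p under 0.05 and ligand-receptor partners of those. Up to 4 genes per pathway list with the smallest p are named. Cxcr4 and Ppbp were added with their values seen. The members and lists were chosen with earlier results of these data known. Alternatives were the level filter, variance model, normalization, centring, weights, replicate block, threshold, probe sets per gene and omission of each array. The fit was tested on simulated data.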

Additional observations from a re-analysis of the deposited data

How the results depend on the processing

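The count of members past the threshold stayed at 0 under every alternative tried except array weights, which called 3: Ackr3 (0.68, adjusted p = 0.0262), Ccl24 (0.41, adjusted p = 0.0251) and Ccl7 (0.61, adjusted p = 0.0304). Those weights were 3.042 for Notch3-/- replicate 3 and 2.938 for Notch3+/+ replicate 2, against 0.29 to 0.841 for the other 4 arrays, and they called 465 genes in all against 41. An adjusted p under 0.10 also gave 0 members. The ligand median was 0.03 without a level filter and 0.34 with a filter at the 60th percentile, and it ran from 0.02 to 0.20 over the omissions of 1 array. The receptor median was -0.02 without a filter, 0.30 with a filter at the 60th percentile and 0.30 with array weights, and it ran from -0.03 to 0.31 over the omissions of 1 array. These medians depend on which dim members enter, by construction of the filter. The mean of a gene's probe sets turned the sign of Ackr4 (0.41), Ccr2 (0.26), Adam10 (-0.13) and Nfkbiz (-0.06). Cxcl1 turned to -0.04 with array weights and ran from -0.04 to 0.07 over the omissions of 1 array, turning without Notch3-/- replicate 1 (-0.04) and Notch3+/+ replicate 1 (-0.01). Cxcl14 ran from -0.10 (without Notch3+/+ replicate 3) to 0.28. Over the omissions of 1 array, small values of other members also turned: Ccl4 ran from -0.08 to 0.02, Ccl25 from -0.22 to 0.03, Ccl27a from -0.15 to 0.20, Ccl28 from -0.09 to 0.19, Cxcl10 from -0.03 to 0.08, Ccr10 from -0.18 to 0.03 and Cxcr4 from -0.03 to 0.37. Cxcl17, at 0.00, has no direction, and the other tested members kept theirs under the alternatives that gave a value. With the replicate block, 0 members passed, 11 had an unadjusted p under 0.05, and the ligand and receptor medians were 0.13 and 0.15. The numbers share no stated source, and deviations of same-numbered pools correlated at 0.242, 0.046 and -0.067, so they were not taken as pairs. No scanner files were used here, so signal over background is unknown, and dim members near the filter are the least certain.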
